A study of Mus musculus with 12 samples.

Results

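The genes described here were the 7 protein genes of the mouse mitochondrial genome that were well counted in RNA-seq libraries of liver, namely mt-Nd1, mt-Nd2, mt-Nd4, mt-Nd5, mt-Nd6, mt-Cytb and mt-Co1. They were chosen by name from 41128 genes for their read counts, which are therefore given as a description. The lowest count of any of the 7 in any library was 2712 reads, in mt-Nd6. By contrast, the other 6 mitochondrial protein genes held no more than 2 reads in any library, and none of them passed the filter on low values, which all 7 passed. Livers came from 12 C57BL/6 mice that were germ-free until weaning, 3 labelled male and 3 labelled female for each condition. The reads of a library labelled male went against that label, as given below. Germ-free (GF) mice stayed in sterile isolators until they were killed at 6 weeks of age. Conventionalized (CV) mice left the isolators at weaning, at about day 21, and spent 3 weeks on used bedding taken from other parts of the facility, so that both conditions had the same age and strain and differed in housing as well as in microbes. Littermates were divided between the conditions, but which animals shared a litter or a cage is not labelled, and p-values measure the spread between these libraries. The comparison addressed how exposure to microbes after weaning changed gene expression in the liver.

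The mitochondrial genome is a small circular DNA that is present in many copies in each cell. It encodes 13 proteins, 2 ribosomal RNAs and 22 transfer RNAs, and every protein is a subunit of the respiratory chain or of ATP synthase. Both strands are transcribed as long precursors, which are cut at the transfer RNAs, and most of the messenger RNAs receive short poly(A) tails. All other subunits of these complexes come from nuclear genes and are imported. Hepatocytes are rich in mitochondria, which supply energy for glucose synthesis, urea synthesis and fatty acid oxidation.

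On GRCm38, with the GENCODE annotation, 5 of the 7 genes encode subunits of complex I, which passes electrons from NADH to ubiquinone. These were mt-Nd1 (ENSMUSG00000064341, chrM:2751-3707), mt-Nd2 (ENSMUSG00000064345, chrM:3914-4951), mt-Nd4 (ENSMUSG00000064363, chrM:10167-11544), mt-Nd5 (ENSMUSG00000064367, chrM:11742-13565) and mt-Nd6 (ENSMUSG00000064368, chrM:13552-14070). The gene mt-Cytb (ENSMUSG00000064370, chrM:14145-15288) encodes cytochrome b of complex III, and mt-Co1 (ENSMUSG00000064351, chrM:5328-6872) encodes the catalytic subunit of complex IV, cytochrome c oxidase. Each gene is a single exon, and all but mt-Nd6 lie on the plus strand. The annotated ends of mt-Nd5 and mt-Nd6 overlap on opposite strands. Libraries were made with a stranded kit, but whether counting used the strand was not given in the sources used here, so that reads from the overlap cannot be assigned by strand with certainty.

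The annotated 3′ ends of the 7 transcripts are shown because the library kit selects polyadenylated RNA and because these ends set the genes apart from ordinary nuclear mRNAs. Each line gives the last 30 bases of the transcript, 5′ to 3′, with the encoded stop codon, or the encoded part of it, in capitals.
mt-Nd1: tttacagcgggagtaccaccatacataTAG
mt-Nd2: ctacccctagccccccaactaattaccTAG
mt-Nd4: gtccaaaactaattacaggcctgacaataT
mt-Nd5: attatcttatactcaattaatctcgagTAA
mt-Nd6: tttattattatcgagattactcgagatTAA
mt-Cytb: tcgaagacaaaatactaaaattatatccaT
mt-Co1: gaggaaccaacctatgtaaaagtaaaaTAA
The annotated transcripts of mt-Nd4 and mt-Cytb end in a lone T of the stop codon, which the poly(A) tail completes. The other 5 are annotated with a whole stop codon and no further bases. The annotated ends of mt-Nd1 and mt-Nd2 overlap the starts of mt-Ti (chrM:3706) and mt-Tw (chrM:4950) on the same strand. Whether their stop codons stay whole after cutting was not tested.

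Library depth ranged from 5993619 to 10975691 reads in GF livers and from 8890529 to 15290835 reads in CV livers. A set of 7 abundant loci, which comprised both mitochondrial ribosomal RNA genes, Lars2, Mir6236 and 3 predicted genes, held 41.8 to 69.4% of all reads in GF libraries and 5.39 to 21.9% in CV libraries. The share of these loci therefore moved with the condition beside every result below, and 95.3% of its variance was between the 4 groups of condition and sex. The sex label of CV male 3 went against its reads: Xist, which females transcribe from the inactive X chromosome, had 2622 reads there and 7 to 18 in the other 5 male libraries, and 4 Y-linked genes summed to 0 there and to 796 or more in those 5. The CV female 3 library stood apart in mt-Co1. The libraries CV male 2 and CV male 3 stood apart from the other CV libraries in the share of the abundant loci, with 21.4 and 21.9% against 5.39 to 7.96%, and in that of mitochondrial ribosomal RNA, with 5.89 and 6.32% against 1.39 to 1.81%.

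Together, the 7 genes held 5.41 ± 1.24% of all reads in GF livers and 2.12 ± 0.788% in CV livers (mean ± SD, n = 6 each). Leaving out CV male 3, the CV share was 1.86 ± 0.529% (n = 5). The range was 2.99 to 6.37% in GF and 1.25 to 3.41% in CV, and the lowest GF library, GF female 3, lay below the highest CV library. Counting error was far smaller than this spread, and in GF female 3, the 95% Wilson interval of the share ran from 2.98 to 3.00%. Set against reads of nuclear protein-coding genes other than Lars2, the 7 genes had 15.5 ± 6.03 reads per 100 such reads in GF and 2.57 ± 1.24 in CV. On this scale the conditions did not overlap, with 10.6 to 26.2 in GF and 1.39 to 4.61 in CV.

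Normalised counts below are the deposited values, which are read counts divided by a size factor for each library. Changes are differences of log2(value + 1) between CV and GF livers (CV minus GF) from limma, fitted to the 11782 genes with a mean value of at least 10, with p-values adjusted over all of them by the Benjamini-Hochberg method. A gene was called at an adjusted p under 0.05.

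**Figure D1:**
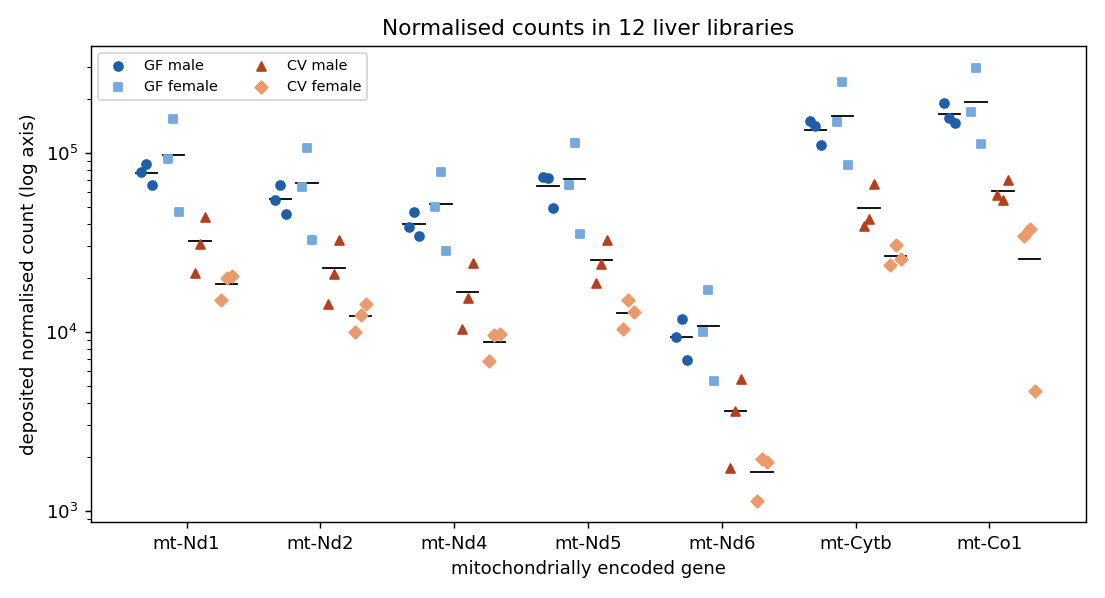
Deposited normalised counts of the 7 mitochondrially encoded genes (log axis) in the 12 libraries; each point is a library, in the order of replicate numbers within a group, and each bar is the mean of 3 libraries. Values of every gene lay lower in CV than in GF within each labelled sex, and mt-Co1 in CV female 3 lay at 4646.

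Among complex I genes, mt-Nd1 encodes a core membrane subunit close to the site where ubiquinone binds. Its normalised counts were 77776, 86695 and 65820 in GF males, 91583, 153256 and 46483 in GF females, 21383, 30956 and 43496 in CV males, and 14953, 19901 and 20412 in CV females. CV libraries lay below GF libraries within each sex with no overlap. The log2 change over both sexes was -1.78 ± 0.35 (SE; limma adjusted p = 0.000357).

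The membrane subunits mt-Nd2, mt-Nd4 and mt-Nd5 belong to the family of proton-pumping antiporter-like subunits. Counts of mt-Nd2 were 54527, 65972 and 45641 in GF males, 64196, 106563 and 32344 in GF females, 14292, 20981 and 32644 in CV males, and 9949, 12364 and 14364 in CV females. Counts of mt-Nd4 were 38385, 46461 and 34453 in GF males, 49747, 77923 and 28271 in GF females, 10389, 15354 and 24113 in CV males, and 6903, 9585 and 9665 in CV females. Within each labelled sex, both genes were lower in every CV library than in any GF library, although CV male 3 exceeded GF female 3 for mt-Nd2. Counts of mt-Nd5 were 73467, 72599 and 49045 in GF males, 65899, 113088 and 34930 in GF females, 18631, 23793 and 32603 in CV males, and 10339, 15032 and 12958 in CV females. The log2 changes over both sexes were -1.84 ± 0.34 for mt-Nd2, -1.90 ± 0.31 for mt-Nd4 and -1.87 ± 0.33 for mt-Nd5 (limma adjusted p = 0.000209, 7.61e-05 and 0.000159).

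The light strand gene mt-Nd6, the least counted of the 7, encodes a small membrane subunit. Its counts were 9392, 11802 and 6936 in GF males, 9936, 17189 and 5327 in GF females, 1741, 3621 and 5475 in CV males, and 1141, 1943 and 1870 in CV females. There was no overlap within a labelled sex, although CV male 3 exceeded GF female 3 by a small margin. The log2 change of -2.04 ± 0.32 (limma adjusted p = 4.65e-05) lay within the range of the plus strand genes, from -1.78 to -2.36, and its difference from them was not tested.

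For complex III, mt-Cytb counts were 150746, 140060 and 110304 in GF males, 148624, 249187 and 85421 in GF females, 38695, 42336 and 66574 in CV males, and 23475, 30439 and 25455 in CV females. All 6 CV libraries lay below all 6 GF libraries. The log2 change was -1.98 ± 0.36 (limma adjusted p = 0.000218). For complex IV, mt-Co1 counts were 189040, 156842 and 146091 in GF males, 168014, 298385 and 111145 in GF females, 58347, 54041 and 70282 in CV males, and 34351, 37464 and 4646 in CV females. Again no CV library reached a GF library, and CV female 3 had by far the lowest count. The log2 change of mt-Co1 was -2.36 ± 0.49 (limma adjusted p = 0.000614), and it was -1.87 ± 0.42 without CV female 3 (limma adjusted p = 0.00157).

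All 7 genes were thus called lower in CV over both sexes, with a median log2 change of -1.90, against a median of 0.075 over all genes tested. Calls were frequent in this comparison: 28.7% of tested genes were called lower and 61.1% were called in either direction. The count of 7 of 7 is read beside that share. On the size of the change, 726 of the tested genes (6.16%) had a log2 change as low as that of mt-Nd1, the least changed of the 7, and 281 (2.38%) one as low as that of mt-Co1. Libraries did not overlap within either labelled sex for 7 of 7 genes, as for 17.9% of all tested genes in the same direction. CV male 3, whose reads went against its sex label, exceeded GF female 3 for mt-Nd2 and mt-Nd6, so for these genes the non-overlap rests on the label. Leaving out CV male 3, 7 of 7 were called as well, with a median of -2.06, where 3311 of all 11782 genes tested were called lower. Leaving out both CV male 2 and CV male 3, the median was -2.13. In bulk liver, less mitochondrial RNA per cell and fewer cells rich in mitochondria cannot be told apart.

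The scaling between libraries set the size of the change but not its direction. With counts scaled to all reads, which the abundant loci dominate in GF, the median change of the 7 genes was -1.34 and that of all genes 0.623. Scaled to nuclear protein-coding reads without Lars2, these medians were -2.59 and -0.593. All 7 genes were called lower over both sexes on the deposited scale and under the 6 other scalings. Adding the abundant-locus share to the model as a covariate left 0 of the 7 called and 7 of all genes (limma; median of the 7 genes -0.75). With the mitochondrial ribosomal RNA share as the covariate, 0 of the 7 and 0 of all genes were called, and the median of the 7 turned to 0.35. Of the variance of the latter share, 93.5% was between groups, so that it and the condition cannot be told apart.

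In females, the log2 changes ranged from -2.25 ± 0.49 in mt-Nd1 to -3.29 ± 0.70 in mt-Co1, and all 7 genes were called lower (limma adjusted p from 0.000181 to 0.00115), where 26% of all genes were called lower. GF means were 5.27 times CV means for mt-Nd1 and 7.55 times for mt-Co1. Without CV female 3, the change of mt-Co1 in females was -2.31 ± 0.63 (limma adjusted p = 0.00761), beside -2.33 ± 0.59 for mt-Nd1 in the same fit.

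In males, the estimated changes ran from -1.32 ± 0.49 in mt-Nd1 to -1.49 ± 0.45 in mt-Nd6. Of the 7 genes, mt-Nd2, mt-Nd4, mt-Nd5, mt-Nd6 and mt-Cytb were called lower (limma adjusted p from 0.0212 to 0.0421), where 15.4% of all genes were called lower. The changes of mt-Nd1 (-1.32, limma adjusted p = 0.0538) and mt-Co1 (-1.43 ± 0.70, limma adjusted p = 0.130) did not pass. Leaving out CV male 3, 6 of the 7 passed, mt-Co1 being the exception, where 1543 of all 11782 genes tested were called lower. The change of mt-Nd1 in that fit was -1.57 ± 0.55 (limma adjusted p = 0.0478). Leaving out both CV male 2 and CV male 3, 1 CV male was left that is assumed to vary like the other groups. The changes were then -1.83 ± 0.63 in mt-Nd1 and -2.39 ± 0.55 in mt-Nd6. The male calls rested on few libraries. None of the 7 was called without GF male 1, without GF male 2 or without CV male 1, and 1 was called without GF male 3, without CV male 2 or without CV female 2. Without CV female 1 or CV female 3, which enter the shared estimate of spread, 2 were called, and 3 without GF female 1.

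**Figure D2:**
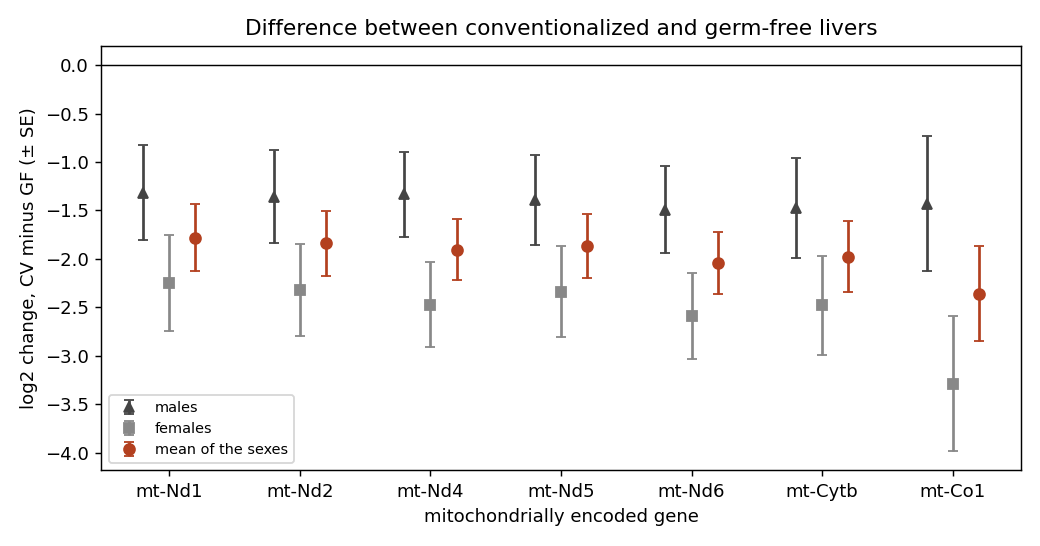
Log2 change (CV minus GF) of each gene with its SE from limma, in males (3 CV against 3 GF libraries), in females (3 against 3) and as the mean of the sexes. Every estimate lies below 0, the female ones between -2.25 and -3.29 and the male ones between -1.32 and -1.49.

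The difference between the sexes in this change was itself tested. Female minus male changes ranged from -0.93 ± 0.70 in mt-Nd1 to -1.86 ± 0.98 in mt-Co1, and 0 of 7 genes were called (limma adjusted p from 0.448 to 0.558, with 0 of 7 at an unadjusted p under 0.05, and edgeR and DESeq2 called 0 of 7). In this comparison 0% of all tested genes were called by limma and 11.7% had an unadjusted p under 0.05. The larger estimates in females were thus not resolved from those in males at 3 libraries per group. The size of this difference moved with the libraries left out. Without CV female 3, that of mt-Co1 was -0.88 ± 0.84, the smallest of the 7, and the largest was -1.22 ± 0.70 in mt-Nd4. Without CV male 3, whose reads went against its label, the range was -0.66 ± 0.70 in mt-Nd2 to -1.75 ± 1.06 in mt-Co1. Without both CV male 2 and CV male 3, it was -0.20 ± 0.67 in mt-Nd6 to -1.81 ± 1.21 in mt-Co1, and 0 of 7 genes were called in each of these fits.

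Averaged over conditions, males and females differed by 0.28 ± 0.35 in mt-Nd1 to 0.81 ± 0.49 in mt-Co1 (male minus female, log2), and 0 of 7 passed (limma adjusted p from 0.588 to 0.850, with 0 of 7 at an unadjusted p under 0.05, and edgeR and DESeq2 called 0), where 1.16% of all genes were called. These values moved with the same libraries. The difference in mt-Co1 was 0.32 ± 0.42 without CV female 3. Without CV male 3 those of mt-Nd1 and mt-Nd4 were 0.16 ± 0.37 and 0.14 ± 0.32, and without both CV male 2 and CV male 3 they were 0.022 ± 0.38 and -0.0042 ± 0.33.

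Ratios within a library do not depend on the scaling between libraries. Per kilobase of transcript, mt-Cytb had the highest mean level in GF livers and mt-Nd6 the lowest. Levels per kilobase relative to mt-Cytb in GF were 0.904 ± 0.0639 for mt-Co1, 0.699 ± 0.0524 for mt-Nd1, 0.456 ± 0.0434 for mt-Nd2, 0.288 ± 0.024 for mt-Nd5, 0.26 ± 0.025 for mt-Nd4 and 0.15 ± 0.0186 for mt-Nd6 (n = 6). The ranges of mt-Nd5 (0.256 to 0.325) and mt-Nd4 (0.211 to 0.278) overlapped, and so the order of these neighbours was not resolved. The other neighbours in this order did not overlap in GF. These levels were divided by whole transcript length. Of 100-base windows, 30.8% of mt-Co1 and 60.8% of mt-Nd4 also occur in other transcripts, against 0% of mt-Cytb. The places of mt-Co1 and mt-Nd4 in the order are therefore uncertain. The part of poly(A) selection in these levels was not tested.

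In CV livers, the same levels relative to mt-Cytb were 0.829 ± 0.361 for mt-Co1, 0.803 ± 0.102 for mt-Nd1, 0.505 ± 0.0787 for mt-Nd2, 0.311 ± 0.0249 for mt-Nd5, 0.274 ± 0.0369 for mt-Nd4 and 0.146 ± 0.0375 for mt-Nd6. The CV range of mt-Co1 (0.135 to 1.12) overlapped those of its neighbours, and mt-Nd5 and mt-Nd4 overlapped again. GF and CV ranges overlapped for all 6 of these genes. Within females, the mt-Nd1 ratio was higher in every CV than in any GF library, by 0.23 on the log2 scale, while in males it overlapped. The 7 transcripts thus differed several-fold in counted reads per kilobase, while their proportions moved little beside the change that all of them shared.

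**Figure D3:**
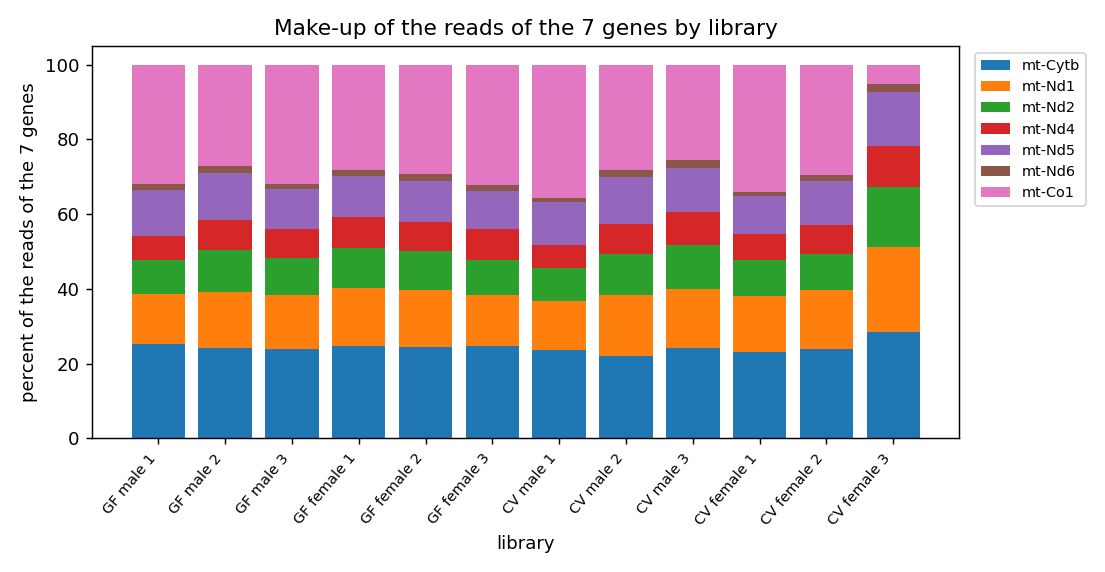
Share of each of the 7 genes in their summed reads (percent, stacked to 100%) in each library. In 11 libraries mt-Co1 took 25.5 to 35.7% of these reads, and in CV female 3 it took 5.20%.

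The clearest departure from these proportions was mt-Co1 in CV female 3. This library held 7717 reads of mt-Co1, against 81669 and 55771 in the other CV females, and 42278 reads of mt-Cytb, against 55813 and 45313. Relative to mt-Cytb per kilobase, mt-Co1 stood at 0.135 in CV female 3 and at 0.782 or more in the other 11 libraries. The other 6 genes of this library lay between -0.05 and 0.25 of their group mean on the log2 scale, while mt-Co1 lay at -1.97. When mt-Co1 was set aside, the share of each of the other 6 genes in their summed reads overlapped between GF and CV. For mt-Nd4 it was 9.49 to 12.1% in GF and 9.88 to 11.8% in CV.

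Genes of like profile were sought by the root mean square difference of log2 values over the 12 libraries, each centred on its own mean. The nearest genes to mt-Nd1 and mt-Nd2 were each other, at 0.0733, and for 6 of the 7 genes, 5 of the 6 nearest tested genes were among the 7. For mt-Co1 none of them was, and its nearest gene was Gm13340, at 0.317. These profiles include CV female 3, in which mt-Co1 lay at -1.97 of its group mean and Gm13340 had 0 reads. The nearest gene without that library was not sought. Outside the mitochondrial genome, the profiles nearest to the mean of the 7 were those of Gm28438 (0.234), 0610009E02Rik (0.328), Zc3h13 (0.348), Mir6236 (0.364) and Ccl5 (0.380). Zc3h13 encodes a component of the RNA methylation machinery and Ccl5 a chemokine of lymphocytes, and Gm28438 and Gm13340 are nuclear copies of mitochondrial genes.

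The mouse nuclear genome holds inserted copies of mitochondrial DNA, and reads that match both a gene and a copy equally well are often left uncounted. Therefore, every 100-base window of the 13 mitochondrial protein genes was searched for in all other annotated transcripts, on both strands. The read length was not given in the sources used here. All 100-base windows of mt-Nd1, mt-Nd5, mt-Nd6 and mt-Cytb were absent from other transcripts, while 3.19% of those of mt-Nd2, 30.8% of mt-Co1 and 60.8% of mt-Nd4 were found elsewhere. With windows of 50 bases, which stand for shorter reads, the shares were 7.61% for mt-Nd5, 8.19% for mt-Nd2, 51.1% for mt-Co1 and 62.2% for mt-Nd4, and 0% for mt-Nd1, mt-Nd6 and mt-Cytb. Levels of mt-Co1 and mt-Nd4 against the others are given with that limit, and its part in them was not tested.

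Among the genes left with almost no reads, mt-Co2, mt-Atp6, mt-Co3, mt-Nd3 and mt-Nd4l had 99.5, 99.5, 99.9, 97.6 and 98.5% of their windows in other transcripts. They encode subunits of complex IV, ATP synthase and complex I. Over all 12 libraries these genes held 3, 1, 3, 1 and 0 reads, and mt-Atp8, with 0 reads, had no shared window in the annotated transcripts. At the lowest depth of any library, 0 reads of a gene allow a share of up to 5.01e-05% of reads, for counting error only. These low counts do not show that the transcripts were absent, and their change with condition was not measurable.

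**Figure D4:**
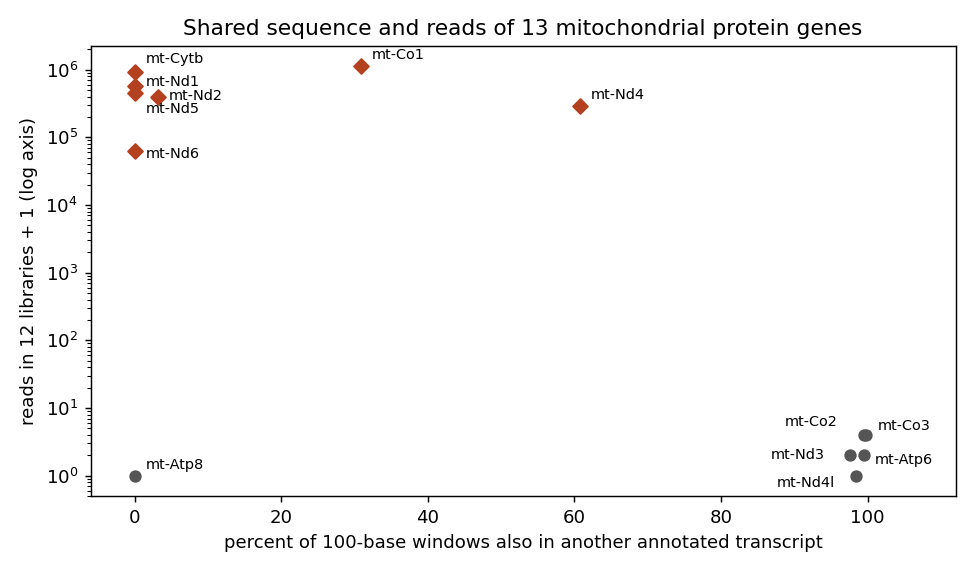
Reads of each of the 13 mitochondrial protein genes summed over 12 libraries, plus 1 (log axis), against the percent of its 100-base windows that also occur in another annotated transcript. Diamonds are the 7 genes described here, with 0 to 60.8% shared windows, and circles are the other 6, of which 5 share 97.6% or more and mt-Atp8 shares 0%.

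A block of 7 copies lies on the minus strand of chromosome 1. It runs from Gm28439, the copy of mt-Nd4 (chr1:24611535-24612410), to Gm29216, the copy of part of mt-Co1 (chr1:24615706-24616197). Gm28661 (chr1:24614885-24615565) matched mt-Co2 over 681 bases with 0 differences. It is shown with the start of mt-Co2 as an example of sequence in which a read cannot be assigned.
mt-Co2: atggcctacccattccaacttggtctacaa
Gm28661: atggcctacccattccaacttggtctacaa
For mt-Nd4, the copy covers the first 876 of 1378 bases with 0 differences, and the later bases match no other annotated transcript over a whole window. The next line gives bases 847 to 906 of mt-Nd4, with those shared with Gm28439 in capitals.
mt-Nd4: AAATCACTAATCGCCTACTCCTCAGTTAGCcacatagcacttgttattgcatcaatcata
Of the copies that matched without a difference, none held more than 7 reads in a library.

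The copy of mt-Nd3 differed from the rest in its reads. Gm28438 (chr1:24612775-24613119) matched mt-Nd3 over 345 bases except for the substitution T3C, counted from 1 at the first base of mt-Nd3. The first 30 bases of both are shown with that base in capitals.
mt-Nd3: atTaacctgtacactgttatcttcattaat
Gm28438: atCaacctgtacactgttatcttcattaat
Reads of Gm28438 numbered 739, 619 and 514 in GF males, 669, 597 and 321 in GF females, 349, 447 and 501 in CV males, and 290, 243 and 295 in CV females, where mt-Nd3 had 1 read in all libraries together. Its log2 change over both sexes was -1.97 ± 0.25 (limma adjusted p = 6.95e-06), and normalised counts did not overlap within a sex. This nuclear-annotated row thus followed the 7 mitochondrial genes in size and direction, and the genome its reads came from was not tested.

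The copy with the next most reads, Gm13340 (chr2:22588103-22589647), matched mt-Co1 over its 1545 bases with 37 differences. It held 56, 26 and 35 reads in GF males, 27, 31 and 13 in GF females, 18, 26 and 17 in CV males, and 16, 17 and 0 in CV females. The library without a read of Gm13340 was CV female 3, in which mt-Co1 was lowest. Its log2 change was -2.42 ± 0.50 (limma adjusted p = 0.000573), fitted with that 0. Beside it on chromosome 2, Gm13341 (chr2:22587291-22587962), a diverged copy of mt-Co2 with 173 differences over 672 bases, held 5 to 24 reads in each library and changed by -1.70 ± 0.35 (log2, limma adjusted p = 0.000537). None of the remaining copies compared held more than 8 reads in a library. The copies of mt-Nd2, mt-Nd5, mt-Nd6 and mt-Cytb on chromosomes 2 and 4 each held no more than 3 reads over all libraries.

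The ribosomal RNA genes mt-Rnr1 (chrM:70-1024) and mt-Rnr2 (chrM:1094-2675) lie upstream of mt-Nd1 on the same strand, and their products are the RNA of the mitochondrial ribosome. They were lower in CV as well, with log2 changes of -3.02 ± 0.44 for mt-Rnr1 and -2.82 ± 0.58 for mt-Rnr2 (limma adjusted p = 2.88e-05 and 0.000552). Together they held 12.6 ± 2.85% of all reads in GF and 3.12 ± 2.32% in CV (n = 6). Per read of the 7 protein genes there were 2.49 ± 1.05 ribosomal reads in GF and 1.36 ± 0.595 in CV. Over both sexes these ratios overlapped, from 1.74 to 4.49 in GF and from 0.663 to 2.24 in CV. Within females they did not overlap, with 2.46 to 4.49 in GF and 0.962 to 1.42 in CV. Within males they overlapped, with 1.74 to 1.90 in GF and 0.663 to 2.24 in CV, with or without CV male 3. Poly(A) selection keeps ribosomal RNA only in part, and the part of that step in these ratios was not tested.

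Nuclear subunits of the same complexes went the other way over both sexes. On the deposited scale, 25 of 36 nuclear subunits of complex I were called higher in CV and 0 lower (median log2 change 0.98), with 7 of 9 for complex III (1.15), 7 of 11 for complex IV (0.94), 12 of 15 for ATP synthase (1.41) and 4 of 4 for complex II (1.79), which has no mitochondrially encoded subunit. Over all genes tested, 32.3% were called higher. In males, 11 of 36 were called higher for complex I, 4 of 9 for complex III, 1 of 11 for complex IV, 7 of 15 for ATP synthase and 4 of 4 for complex II. In females, these counts were 27, 7, 7, 12 and 4. Of all 11782 genes tested, 1660 were called higher in males and 3512 in females. Examples were Ndufv1, which binds NADH in complex I (1.69 ± 0.18), Ndufs3 (1.76 ± 0.19), Sdhd and Sdhb of complex II (2.75 ± 0.22 and 1.56 ± 0.19), Cyc1 and Uqcrc1 of complex III (1.86 ± 0.19 and 2.17 ± 0.24), Cox5a and Cox4i1 of complex IV (2.28 ± 0.26 and 1.24 ± 0.26), and Atp5c1 and Atp5d of ATP synthase (2.01 ± 0.23 and 1.79 ± 0.20). All 10 were called higher over both sexes on the deposited scale and under the 6 other scalings. In males, Cox4i1 did not pass (0.70 ± 0.37, limma adjusted p = 0.158), and its GF and CV libraries overlapped.

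Scaled to nuclear protein-coding reads without Lars2, the counts were 16 higher and 1 lower for complex I, 4 and 1 for complex III, 3 and 1 for complex IV, and 8 and 1 for ATP synthase. Of all 11782 genes tested, 1496 were called higher and 5873 lower under that scaling. Without CV male 3, 25 complex I and 7 complex IV subunits were called higher (medians 0.89 and 0.85), beside 3777 of all 11782 genes tested. Without both CV male 2 and CV male 3, which leaves 1 CV male, these medians were 0.84 and 0.60. No nuclear subunit of these 5 complexes had a log2 change over both sexes as low as any of the 7 mitochondrial genes on the deposited scale.

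**Figure D5:**
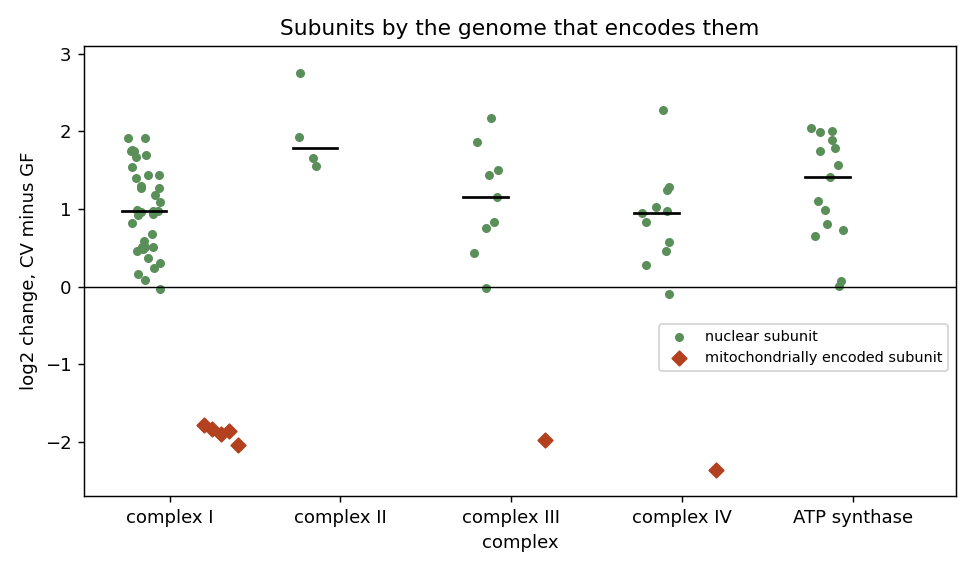
Log2 change over both sexes (CV minus GF, deposited scale) of each tested subunit by complex; green points are nuclear subunits, black bars their medians, and red diamonds the 7 mitochondrially encoded genes. Medians of the nuclear subunits lie between 0.94 and 1.79 and the diamonds between -1.78 and -2.36.

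Assembly factors of complexes I, III and IV were called higher in 17 of 29 tested and lower in 0, against 32.3% and 28.7% of all genes tested. Among them were Coa3 (1.36 ± 0.18) and Surf1 (1.26 ± 0.17), both needed for complex IV. Factors of mitochondrial translation and insertion were higher in 9 of 14 and lower in 0. The elongation factor Tufm changed by 1.71 ± 0.21 and the ribosome recycling factor Mrrf by 1.32 ± 0.18. Under the scaling without Lars2, these lists had 5 higher and 6 lower, and 5 higher and 5 lower, so their directions depended on the scaling. Under it, 1496 of all 11782 genes tested were called higher and 5873 lower.

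Transcription of mitochondrial DNA needs the polymerase Polrmt with Tfam and Tfb2m, and Tefm for elongation. Of 8 tested genes of this list, 4 were called higher and 0 lower, against 32.3% and 28.7% of all genes tested. Tfam, which also packages the DNA, was 100 ± 17.1 in GF males and 186 ± 5.46 in CV males, and 106 ± 48.1 and 204 ± 8.24 in females (normalised counts, n = 3), a log2 change of 0.96 ± 0.20 (limma adjusted p = 0.000537). Tefm (0.85 ± 0.20) and Mterf4 (1.33 ± 0.24) were also called higher. The values of Polrmt (-0.22 ± 0.19) and Tfb2m (0.15 ± 0.28) did not pass. Without Lars2 in the scaling, 1 gene of the list was called higher and 2 lower, beside 1496 and 5873 of all 11782 genes tested.

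Regulators of mitochondrial biogenesis had 1 of 9 tested genes called higher and 5 lower, against 32.3% and 28.7% of all genes tested. With counts scaled to all reads, 3 were higher and 2 lower, beside 5926 and 1615 of all 11782 genes tested. The coactivator Ppargc1a had 348 ± 104 normalised counts in GF males and 89.5 ± 25.2 in CV males, and 517 ± 68.3 and 74.9 ± 12.1 in females (n = 3), with no overlap in either sex and a log2 change of -2.36 ± 0.20 (limma adjusted p = 4.86e-07). It was called lower under all 7 scalings. The related Pprc1 (-1.17 ± 0.18) and the transcription factor Nrf1 (-0.70 ± 0.19) were called lower, Gabpa was called higher (0.46 ± 0.18), and Esrra did not pass (0.16 ± 0.21). For Gabpa the sign turned when Lars2 was left out of the scaling (-0.22).

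For replication of mitochondrial DNA, 1 of 14 genes was called higher and 2 lower, against 32.3% and 28.7% of all genes tested. The topoisomerase Top1mt changed by 1.03 ± 0.20, the nuclease Dna2 by -1.11 ± 0.24 and the single-strand binding protein Ssbp1 by -0.44 ± 0.16, which turned to 0.12 with counts scaled to all reads. The polymerase Polg (-0.34 ± 0.21) and the helicase Twnk (-0.18 ± 0.18) did not pass. Without Lars2 in the scaling, 0 genes of this list were called higher and 9 lower, beside 1496 and 5873 of all 11782 genes tested.

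Of 31 genes that process, modify or degrade mitochondrial RNA, 9 were called higher and 3 lower, against 32.3% and 28.7% of all genes tested. Scaled to all reads, 19 were higher and 0 lower, beside 5926 and 1615 of all 11782 genes tested. Among the higher were Elac2 (0.63 ± 0.20) and Hsd17b10 (1.54 ± 0.21), which take part in cutting precursors at transfer RNAs, and the oligoribonuclease Rexo2 (1.22 ± 0.20). Elac2 turned to -0.05 when Lars2 was left out of the scaling. Fastkd1 (-0.83 ± 0.19) and the methyltransferase Trmt61b (-0.89 ± 0.31) were lower. The proteins that stabilise, tail and degrade mitochondrial mRNAs did not pass on the deposited scale, at -0.11 ± 0.16 for Lrpprc, 0.37 ± 0.23 for Slirp, 0.28 ± 0.22 for the poly(A) polymerase Mtpap, -0.17 ± 0.21 for Pnpt1 and 0.32 ± 0.25 for Supv3l1, and each of these 5 signs turned under 2 of the 6 other scalings. Without Lars2 in the scaling, 3 genes of the list were called higher and 13 lower, beside 1496 and 5873 of all 11782 genes tested.

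In all, 180 nuclear genes of these mitochondrial lists were tested, of which 96 were called higher, 10 lower and 74 neither. Their median log2 change was 0.64. Over all genes tested, 32.3% were called higher and 28.7% lower. Scaled to nuclear protein-coding reads without Lars2, 49 of the 180 were higher and 45 lower, beside 1496 and 5873 of all 11782 genes tested. Of these 180 genes, 1 had a log2 change at or below that of the least changed mitochondrial gene on the deposited scale, and it was Ppargc1a.

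RNAs that stay in the nucleus moved in the same direction as the mitochondrial genes. All 8 tested were called lower in CV, where 28.7% of all genes tested were called lower and 32.3% higher. Malat1 changed by -4.25 ± 0.42 and Kcnq1ot1 by -3.86 ± 0.27. The sum of the list was 72617 to 114983 normalised counts in GF and 2302 to 16587 in CV. Hepatocyte markers were higher in CV in 6 of 8 (2 higher and 2 lower without Lars2 in the scaling), and 1 of 8 was called higher in males. Their sums overlapped, with 104534 to 448150 in GF and 390437 to 616351 in CV. The serum albumin gene Alb lay between 47020 and 278958 over both conditions. The 4 globin genes were lower over both sexes among 5 blood markers, where Alas2 did not pass (-0.45, limma adjusted p = 0.511). In males 1 of the 5 was called lower and in females 4, where 15.4% and 26% of all genes tested were called lower. These 5 markers summed to 2777 to 32885 in GF and 916 to 3159 in CV. Lymphocyte markers were lower in 4 of 4 tested, with sums of 179 to 306 in GF and 52.4 to 77.9 in CV. Markers of skeletal and heart muscle, tissues rich in mitochondria, were at or near 0 in all libraries, with sums of at most 3.02, and Ckm, Myh1, Myh6 and Mb were at 0. The part of nuclear RNA and of blood cells in the change of the 7 genes was not tested.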

How the data were processed

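Total RNA was isolated from snap-frozen liver of 12 mice, and 1 stranded mRNA library per mouse was sequenced on an Illumina HiSeq instrument. Per the labels, the submitters' processing notes name HTSeq 0.6.1p1, DESeq2 and build GRCm38. Aligner, annotation and read length were not given in the sources used here. The deposited signal per gene is a read count that the authors divided by the size factor of the library. In each library 100% of values were whole multiples of 1 read within a tolerance of 0.01, so that reads were recovered. The libraries held 5993619 to 15290835 reads, and Wilson intervals and the limit of 3 reads for a count of 0 cover counting error only.

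Groups and replicate numbers came from the sample titles. The tests were run with limma 3.58.1 in R 4.3.3 on log2(value + 1) for 11782 genes with a mean value of at least 10, as 4 group means with a variance trend and Benjamini-Hochberg adjustment at 0.05. Fold changes on this scale understate the change of low genes. On recovered reads, edgeR 4.0.16 with its quasi-likelihood test called 7634 of 12555 genes over both sexes and DESeq2 1.42.0 called 8414. Scripts were tested on simulated data. Annotation and transcript sequences came from GENCODE mouse release 21 on GRCm38, which listed 97.9% of identifiers. Figures and tables used Python 3.11.15.

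The 7 genes and all gene lists were chosen with earlier results of these data known. Besides the 7, the text names the other mitochondrial protein and ribosomal RNA genes, up to 6 nuclear copies, 15 set regulators, up to 2 genes per list and direction with the smallest adjusted p, and the 5 nuclear genes of nearest profile. Markers, Lars2 and the abundant loci were named beside the results that they moved with. Alternatives comprised 28 planned settings and 3 chosen after seeing the data.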

Additional observations from a re-analysis of the deposited data

Results flagged for a closer look

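Of 32 measures, each taken over the 6 libraries of a condition, 7 had a library whose gap to its nearest neighbour exceeded 0.625 of the whole range (Dixon's critical value), where chance gives about 1 in 20. CV female 3 accounted for 4 of them. Its mt-Co1 level of 12.18 (log2(value + 1)) and its mt-Co1 share of 5.20% of the reads of the 7 genes were far below the other CV libraries, while its shares of mt-Nd1 (22.8%) and mt-Cytb (28.5%) were above them. These shares are parts of the same sum and are not independent of each other. In GF male 2, mt-Nd6 made up 2.03% of the reads of the 7 genes, against 1.51 to 1.69% in the other GF libraries. GF female 3 had 2.99% of all reads in the 7 genes, the lowest GF value, and 4.49 mitochondrial ribosomal RNA reads per read of the 7 genes, the highest.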

How the results depend on the processing

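Over both sexes, all 7 genes were called lower under 28 of the 31 alternatives, the exceptions being no filter on low values (6 genes) and both read-share covariates. In females 7 were called except without a filter (5) and with a covariate. Of the log2 changes of the 7 genes in the 3 condition contrasts, recomputed under every alternative, 542 kept their direction and their side of the threshold, 78 lost the call, 15 gained it and 16 turned in sign. Leaving out each library in turn, the change over both sexes ranged from -2.01 to -1.58 for mt-Nd1 and from -2.62 to -1.87 for mt-Co1.

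Male calls were the least stable. Against 5 of the 7 genes, 1 was called at a minimum mean value of 1, 0 without a filter, 0 at a threshold of 0.01 and 0 with either covariate, and 0 to 6 when 1 library was left out. Other settings gave more calls in males. All 7 were called lower with DESeq2 (beside 2213 of 22953 genes), scaled outside the abundant loci (2244 of 11782) and scaled without Lars2 (2901 of 11782). With edgeR 6 were called lower (beside 2150 of 12555 genes), and scaled to all reads 4 were (788 of 11782). Among all genes, 3474 were called in males, 1390 at the threshold of 0.01, and 1604 to 3884 when 1 library was left out (lowest at 1604 for GF male 1, 2135 for GF male 3 and 2183 for CV male 1). For the interaction, where limma called 0 genes, scaling to all reads gave 11, edgeR without a filter 105, DESeq2 26, the fit without CV males 2 and 3 gave 1, and leaving out 1 library gave 0 to 291 (291 without CV male 1 and 4 without CV male 3). Sex differences numbered 137, with edgeR without a filter 350, DESeq2 262, the threshold of 0.01 73, without CV males 2 and 3 245, and 90 to 205 when 1 library was left out (90 without GF male 3 and 90 without CV female 1).

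With the mitochondrial ribosomal RNA share as a covariate, 0 genes were called over both sexes, 3 in males, 0 in females and 1 for the interaction, and 0 of the 7 genes in each. The changes over both sexes turned to 0.52 for mt-Nd1, 0.59 for mt-Nd2, 0.35 for mt-Nd4, 0.31 for mt-Nd5 and 1.10 for mt-Nd6. In males they turned to 0.0674, 0.101, 0.0204 and 0.394 for mt-Nd1, mt-Nd2, mt-Nd4 and mt-Nd6, and in females to 0.98, 1.08, 0.68, 0.70, 1.81 and 0.15 for mt-Nd1, mt-Nd2, mt-Nd4, mt-Nd5, mt-Nd6 and mt-Cytb. With the abundant-locus share, 7 genes were called over both sexes, 13 in males, 0 in females and 85 for sex, again 0 of the 7, and mt-Nd6 in females turned to 0.12. The cause of these turns was not tested.

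With other scalings the split of all calls moved from 3807 higher and 3387 lower to 5926 and 1615 (all reads), 5073 and 2121 (outside the mitochondrial genome), 2145 and 4864 (outside the abundant loci) and 1496 and 5873 (nuclear protein-coding reads without Lars2).

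With the replicate number as a replicate block, 7228 genes were called over both sexes, 3466 in males with 4 of the 7 genes, and 6630 in females. Within a labelled sex, deviations of same-numbered libraries had correlations from -0.228 to 0.0188, and those of differently numbered libraries from -0.186 to 0.209. With 3 libraries a group, these values cannot show whether the numbers pair the samples.

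Depth did not limit the 7 genes, each with 2712 or more reads in a library, and no change could be measured for the other 6 mitochondrial protein genes, with at most 2 reads in a library. With 3 libraries a group, the interaction of condition and sex had standard errors of 0.62 to 0.98 on the log2 scale, and the mean difference between the sexes 0.31 to 0.49.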

Other observations

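Of the 22 mitochondrial transfer RNA genes, 16 had no read in any library, and mt-Tp held 91.8% of the 829 reads of the rest. The gene mt-Tp lies beside mt-Cytb on the opposite strand, with only mt-Tt between them. Its normalised count was 140 ± 104 in GF and 26.5 ± 13.4 in CV (n = 6), a log2 change of -2.22 ± 0.37 (limma adjusted p = 8.51e-05).

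Among liver cell types outside the comparisons above, 4 of 6 Kupffer cell and myeloid markers were called higher in CV, as were 32.3% of all genes tested. The marker sums were 963 to 2120 in GF and 1450 to 3039 in CV. Sinusoidal endothelial markers had 0 higher and 1 lower of 5 and stellate cell markers 1 higher and 1 lower of 5 (limma). These counts moved with the scaling, as did the split of all calls given above. With counts scaled to all reads, 6 Kupffer cell and 4 stellate cell markers were higher, with 0 lower in both lists, and without Lars2 in the scaling 2 Kupffer cell and 0 stellate cell markers were higher and 3 endothelial markers lower. Leaving out CV male 2 and CV male 3, 4 of 5 endothelial markers were lower. The exocrine pancreas list had 1 tested gene, which was called higher, and adipose markers summed to at most 45.3.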
